A study of Mus musculus with 1094 samples.

Results

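Bone morphogenetic proteins (BMPs) signal through a complex of type II and type I receptors, and 10 genes of this route were described here in single cells of the developing mouse cortex. They were the type I receptor genes Bmpr1a and Bmpr1b, the type II receptor gene Bmpr2, the receptor-regulated Smad genes Smad1 and Smad5, the shared partner Smad4, and the Id genes Id1, Id2, Id3 and Id4. They were taken by symbol from the 23078 genes of the tables, each symbol matched 1 row, and all 10 passed the filter on low values. Activated type I receptors phosphorylate Smad1 and Smad5, which enter the nucleus with Smad4 and switch on target genes. Id genes are textbook targets of this signal. Id proteins lack a DNA-binding region and hold E proteins away from proneural basic helix-loop-helix factors, and in the embryonic brain they are known for keeping progenitors from differentiating.

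The series holds 1094 cells from dorsal cortices of C57Bl/6 mice, labelled wild-type and female, each caught and turned into cDNA on a Fluidigm C1 chip. Neural stem cells (NSC) were sorted from Hes5::GFP transgenic mice at E10.5, E11.5, E13.5, E15.5, E17.5, E18.5, P0 and P1. Basal progenitors (BP; E12.5, E14.5, E16.5, E18.5 and P0) and newborn neurons (NBN; E16.5, E18.5, P1 and P3) were both sorted from Tbr2::GFP mice. In these lines GFP reports activity of the Notch target gene Hes5 and of Tbr2 (Eomes), and GFP can outlast the gene in daughter cells. No animal is named, so all cells of 1 population at 1 stage count as 1 library, which gives 8 NSC, 5 BP and 4 NBN libraries, and library and stage cannot be told apart within a population. Values are in TPM, a share of a cell's transcripts corrected for gene length, so levels can be compared between genes, while a lower share and fewer molecules cannot be told apart.

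Of the 1094 cells, 1071 had at least 1000 genes at 1 TPM or more and were used, 39 to 88 per library, with library medians of 3189 to 5764 genes per cell. The sorted populations were mixed by their markers. A cell was given a neuron profile where its mean log2(TPM + 1) over 15 newborn neuron markers exceeded that over 15 radial glia markers, and a radial glia profile otherwise. NSC libraries held from 2 neuron-profile cells of 88 at E10.5 to 78 of 86 at E15.5. Among BP cells at least 96.7% per library had a neuron profile, and basal progenitor markers summed to 745 to 1402 TPM. The same markers summed to 151 TPM (E10.5) to 1147 TPM (E15.5) in NSC libraries, which overlaps the BP range. In NBN libraries they summed to 119 TPM (P1) to 809 TPM (P3). The library labelled NBN P3 went against its label: 36 of its 39 cells held markers of another cell type, mainly of microglia (16 cells) and meninges (13 cells), and its newborn neuron markers summed to 1102 TPM against 8819 to 11823 in the other NBN libraries. In NSC E11.5, 34 of 58 cells held red blood cell markers.

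The promoter of Id4 is shown as that of an Id gene that was lower in BP than in radial glia-profile NSC cells. It is the 250 bases before the RefSeq start, 5′ to 3′ on the gene's strand, on GRCm38.p6. Capitals mark GGCGCC, a core of BMP Smad sites that reads the same on both strands; CAGAC or its reverse complement GTCTG, the Smad box, was also searched.
Id4 (chr13:48260866-48261115, plus strand): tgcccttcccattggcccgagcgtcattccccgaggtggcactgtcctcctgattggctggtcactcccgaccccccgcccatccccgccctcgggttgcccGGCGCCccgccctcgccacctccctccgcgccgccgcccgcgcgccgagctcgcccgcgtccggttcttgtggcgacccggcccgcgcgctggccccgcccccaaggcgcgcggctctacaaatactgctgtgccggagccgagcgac
GGCGCC began 148 bases before the start in Id4 and 231 bases before it in Id2, and was not found in the Id3 window, which held the Smad box 167 and 68 bases before the start. The RefSeq starts used differ from the outer starts of these genes in GENCODE M21. The Id2 and Id3 windows overlap an exon of a longer GENCODE transcript and are not printed, and the Id4 window overlaps none. GGCGCC was also in the windows of Bmpr1a and Bmpr2 and in a Smad5 window, and the Smad box in windows of Bmpr1b and Smad5. Of all 32851 promoter windows of this length, 9.59% held GGCGCC and 42.2% held the Smad box on either strand. GC content was 75.6% in the Id4 window and 62.8% in those of Id2 and Id3, against a median of 52.4% over all windows. These background shares are not matched for GC content. RefSeq entries were matched for 8 of the 10 genes, in 12 windows; Id1 and Smad4 had none. A match describes the letters only.

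Id3 (chromosome 4, 136143497 to 136145755 on GRCm38) had the widest range of the 10 genes. Its mean over the cells of NSC libraries was 224 TPM at E10.5 and 103 TPM at E11.5, 0 at E13.5, 13.4 TPM at E15.5, and then 98.8, 129, 380 and 761 TPM at E17.5, E18.5, P0 and P1. The level was thus high at both ends of the NSC series and lowest in the middle. At E13.5 it was listed at 0 in all 66 cells, which allows cells with detectable Id3 a share of up to 4.55% by counting alone (3 cells; exact upper limit 5.44%) and does not limit cells whose transcripts were missed, while Actb, Eef1a1 and Gapdh were at 1 TPM or more in 100% of the same cells. At E10.5, 55 of 88 cells (62.5%; exact Clopper-Pearson 95% interval 51.5 to 72.6%) had Id3 at 1 TPM or more, and at P0 28 of 45 cells did (62.2%; 46.5 to 76.2%). These intervals cover counting error only. The course was also seen within 1 profile. Radial glia-profile cells with Id3 were 55 of 86 in the E10.5 library and 9 of 28 a day later. They were 0 of 32 in that of E13.5 and 2 of 8 in that of E15.5. They then numbered 4 of 28 (E17.5) and 14 of 52 (E18.5), and after birth 27 of 43 (P0) and 20 of 44 (P1). In NSC E11.5, the mean of Id3 was 36.2 TPM in the 34 cells with red blood cell markers (3 with Id3) and 193 TPM in the 21 cells with markers of no other type (5 with Id3). Among those 21 was a cell of 3693 TPM, which gave 61.9% of the Id3 sum of the library. Without it the library mean was 39.8 TPM, so the gap between these groups rested on 1 cell.

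Id3 was found in very few BP cells. Its BP library means were 0 at E12.5, 2.59 TPM at E14.5, 0.0168 TPM at E16.5, 0 at E18.5 and 0.0632 TPM at P0, and 2 of 332 BP cells reached 1 TPM. All 5 BP libraries lay below all NSC libraries other than E13.5. The NBN libraries held 17.7 TPM (E16.5), 58.9 TPM (E18.5), 3.50 TPM (P1) and 222 TPM (P3). With age as a covariate, Id3 fell by 5.98 ± 1.21 (SE) on the log2(mean TPM + 1) scale from NSC to BP (limma, adjusted p = 0.0270 over 14099 genes). It was the only 1 of the 10 genes called there, beside 0.475% of all genes tested that were called lower. The call was also lost with no filter on low values (adjusted p = 0.124), without cells of other types (0.109), with log2 values averaged over cells (0.0826), with a pseudocount of 10 (0.0612) and with no age term (0.0538). Leaving out 1 library at a time ended this call in 8 of 17 cases (without NSC E10.5, E11.5, E18.5, P0 or P1, or BP E16.5, E18.5 or P0), with a difference of −6.79 to −5.53 and an adjusted p of 0.00426 to 0.0967.

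**Figure D1:**
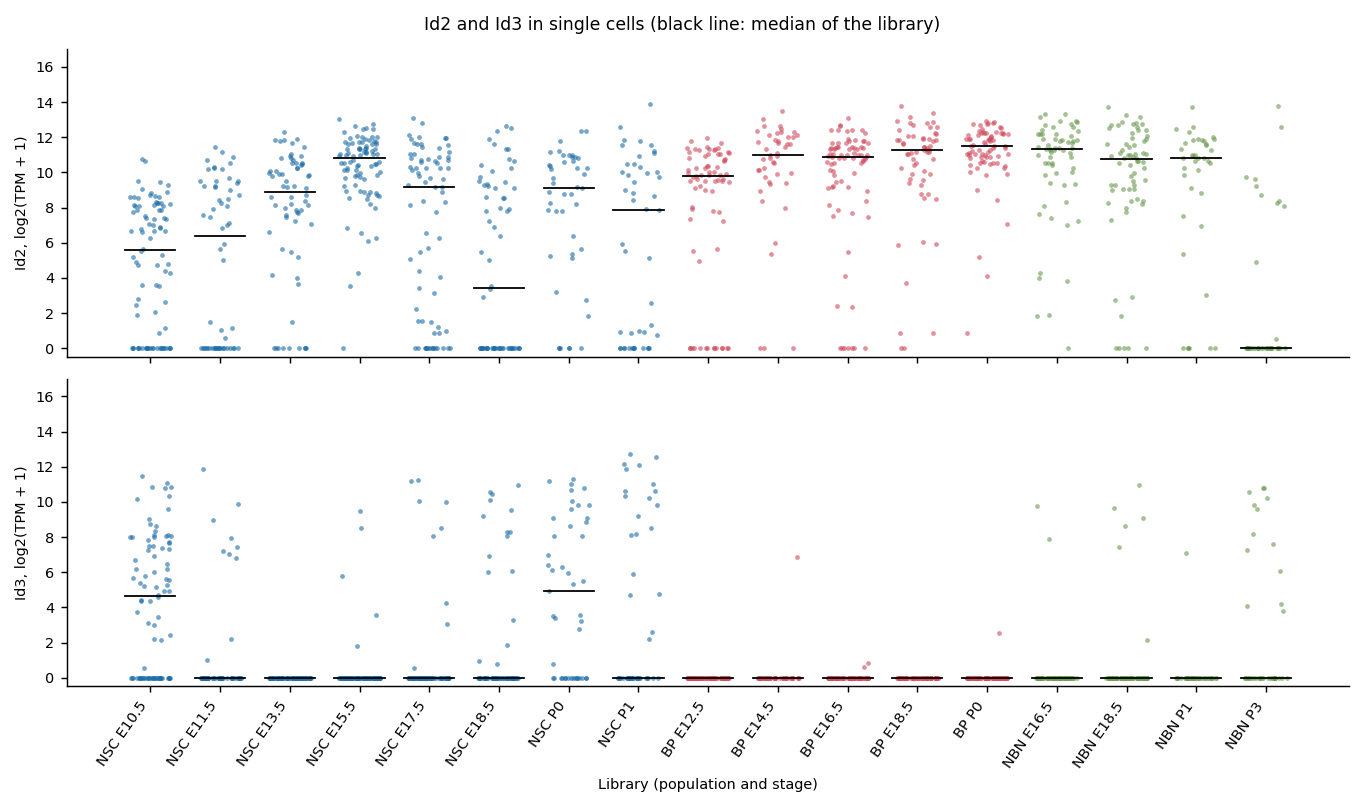
Id2 (top) and Id3 (bottom) as log2(TPM + 1) in each of the 1071 cells, by library; points are cells, spread sideways at random, and the black line is the median of the library. Id2 is high in most BP and NBN cells, whereas Id3 is at 0 in all cells of NSC E13.5 and is above 1 TPM in 2 of 332 BP cells.

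In NBN, meningeal markers summed to 108, 145.5, 4.78 and 1834 TPM from E16.5 to P3, in the same order as Id3. Red blood cell markers had that order too (1.48, 12.7, 0 and 35.5 TPM). Microglial markers (12.7, 25.2, 32.8 and 7453 TPM), endothelial markers (1.29, 8.13, 1.85 and 290 TPM) and markers of mural cells of vessels (17.2, 2.78, 0.202 and 154 TPM) did not. Choroid plexus markers (5.74, 0.0208, 0.0581 and 11651 TPM) did not have that order either. Whether other cells account for Id3 in NBN was not tested. In NBN P3, 13 of 39 cells had Id3. Its mean was 694 TPM in 5 cells with endothelial markers (3 cells with Id3), 265 TPM in 13 with meningeal markers (5 cells), 61.1 TPM in 16 with microglial markers (2 cells) and 838 TPM in the 3 cells with markers of no other type (2 cells); a cell can hold markers of more than 1 type. The NBN minus NSC difference of Id3 was −2.11 ± 1.44 (adjusted p = 0.519), and −3.26 ± 1.59 (adjusted p = 0.271) without NBN P3 and without cells of other types. The latter setting was chosen after the data were seen.

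Id1 (chromosome 2, 152736251 to 152737410) was found in few cells of any library. NSC library means ran from 7.58 TPM at E10.5 through a median of 38.8 to 199 TPM at E18.5, and the share of NSC cells with Id1 was 5.81 to 33.3%, highest at P0 (15 of 45 cells) and P1 (14 of 47). In BP the means were 1.06, 0.529, 0.367, 17.7 and 17.3 TPM from E12.5 to P0, and in NBN 7.01, 1.77, 0.0277 and 38.9 TPM from E16.5 to P3. The first 3 BP libraries lay below every NSC library, and the last 2 overlapped them. Id1 fell by 4.17 ± 0.92 on the log2 scale from NSC to NBN (adjusted p = 0.0282), the only 1 of the 10 genes called in that contrast, where 1.35% of all genes were called lower. The call was lost without NBN E18.5, NBN P1, NSC E18.5, NSC P0 or NSC P1 (range of adjusted p over the 17 fits 0.0100 to 0.0859). It was also lost with stage as a factor (−5.19 ± 1.32, adjusted p = 0.0784), with a pseudocount of 0.1 (0.0613), no filter (0.0744), no age term (0.167) and stages from E16.5 on (0.0571). From NSC to BP its difference was −3.30 ± 0.78 (adjusted p = 0.0703).

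Single cells carried much of the Id1 level. The highest cell gave 54% of the Id1 sum in NSC P1 and all of it in BP E12.5, and in NSC E18.5 it reached 4281 TPM. When the highest cell of each gene was left out of every library, an alternative added once the data had been seen, Id1 fell from NSC to BP by 3.49 ± 0.74 (adjusted p = 0.0338) and fell to NBN by 4.31 ± 0.88 (adjusted p = 0.0147). Id3 then fell from NSC to BP by 5.88 ± 1.28 (adjusted p = 0.0388), and Id4 fell from NSC to NBN by 3.30 ± 0.72 (adjusted p = 0.0210). In that setting 0.648% of genes were called lower in BP and 2.3% lower in NBN. It brings libraries with few positive cells close to 0. Id1 went to 0 in BP E12.5, BP E14.5, NBN E18.5 and NBN P1. Id4 went from 9.63, 6.37 and 39.2 TPM to 0.878, 0.479 and 0.0525 TPM in NBN E18.5, P1 and P3. The setting can thus widen differences by itself, and its calls do not show independence from single cells.

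Id4 (chromosome 13, 48261228 to 48266026), which in the cortex is known from proliferating progenitors, was the most evenly held of the low Id genes in NSC. Its NSC means ran from 18.7 TPM at E17.5 through a median of 30.1 to 97.0 TPM at E13.5, and 41 of 66 cells had it at E13.5 and 56 of 88 at E10.5. BP libraries held 7.20, 4.02, 6.91, 26.9 and 1.71 TPM, and NBN libraries 8.22, 9.63, 6.37 and 39.2 TPM. Apart from BP E18.5 and NBN P3, these lay below every NSC library. In NBN P3 a single cell of 1526 TPM gave nearly the whole sum, and the mean without it was 0.0525 TPM. The difference to NSC was −2.33 ± 0.60 in BP (adjusted p = 0.105) and −1.50 ± 0.71 in NBN (adjusted p = 0.312), neither past the threshold.

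Id2 (chromosome 12, 25093799 to 25097140) differed from the other Id genes in level and direction. It was the most abundant of the 10 genes in every library but NSC E10.5, where Id3 was higher. NSC means were 174, 408, 941 and 2116 TPM from E10.5 to E15.5, then 1202, 673, 1030.3 and 1123 TPM from E17.5 to P1. BP libraries held 1094, 2754, 2091, 3031 and 3195 TPM and NBN libraries 3026, 2584, 2266 and 611 TPM. At least 80.6% of cells in each BP library had Id2, against 53.0 to 98.8% in NSC and 98.4, 92.4, 84.6 and 25.6% in NBN from E16.5 to P3. The BP and NSC ranges overlapped, and the difference was 1.50 ± 0.47 (adjusted p = 0.177). From NSC to NBN the difference was 0.80 ± 0.56 (adjusted p = 0.531). It passed the threshold in 1 of 32 alternatives, with stage as a factor in place of a common age slope (1.61 ± 0.29, adjusted p = 0.0337), where 1.44% of all genes were called higher.

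**Figure D2:**
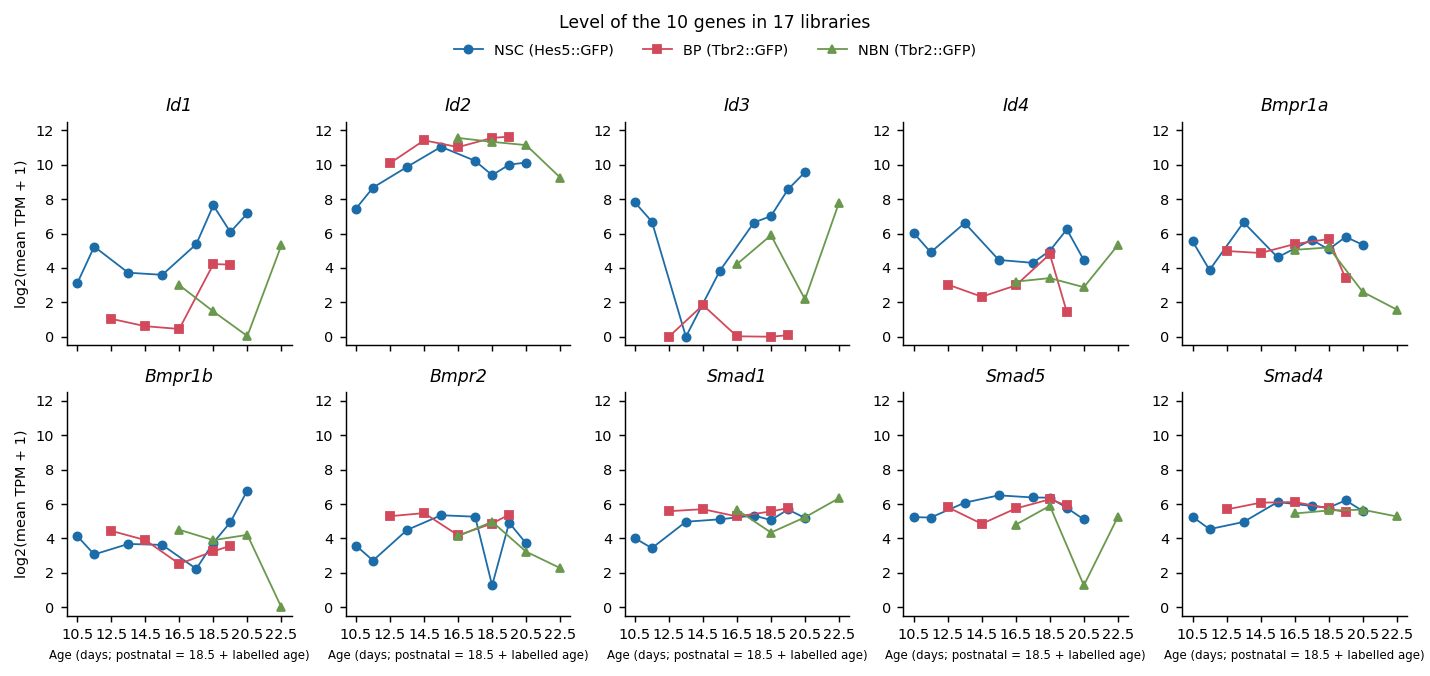
Level of each of the 10 genes as log2(mean TPM + 1) over the cells of a library (vertical) against age in days (horizontal; postnatal ages continue the count from E18.5), with 1 point per library and lines joining the 8 NSC, 5 BP and 4 NBN libraries. Id3 in NSC runs from 224 TPM at E10.5 through 0 at E13.5 to 761 TPM at P1, while Smad4 stays between 22.3 and 73.5 TPM.

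**Figure D3:**
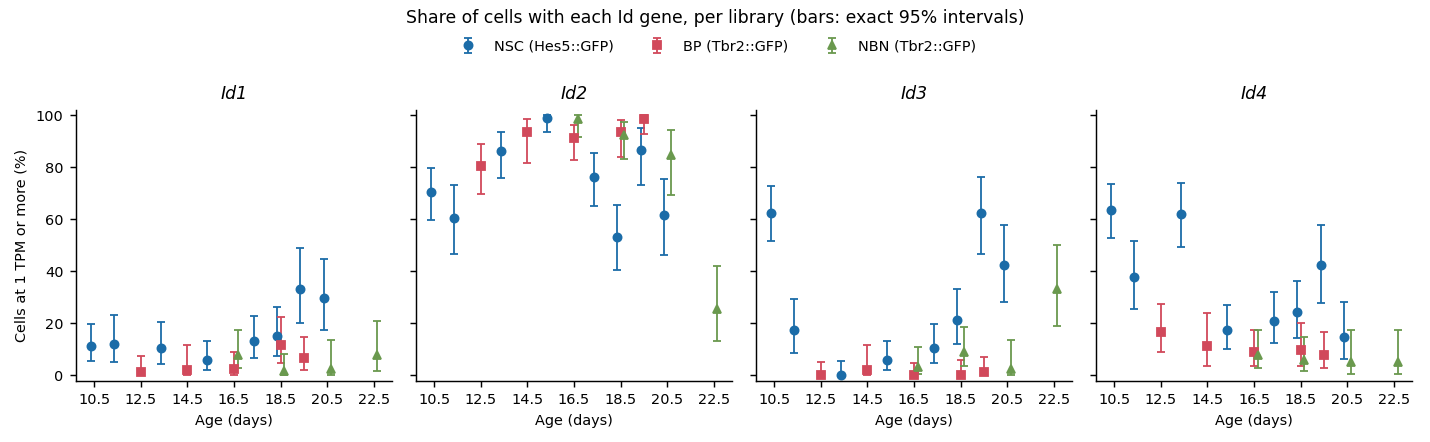
Share of cells with each Id gene at 1 TPM or more (vertical, percent) against age in days (horizontal), per library, with exact 95% binomial intervals as bars and populations shifted slightly sideways. Id1 stays at or below 33.3% in every library and Id3 at or below 2.22% in every BP library.

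Since NSC libraries held neuron-profile cells, the contrasts were repeated with radial glia-profile cells alone in the NSC libraries, chosen on markers that hold none of the 10 genes. All 4 Id genes then differed between radial glia-profile NSC cells and BP. BP cells were not filtered, and at least 96.7% per library had a neuron profile. Population and profile thus cannot be told apart in this contrast. Id1 fell by 4.08 ± 0.77 (adjusted p = 0.00436), Id3 fell by 6.43 ± 1.20 (adjusted p = 0.00413) and Id4 fell by 2.88 ± 0.64 (adjusted p = 0.0118), while Id2 rose by 1.89 ± 0.44 (adjusted p = 0.0141). None of the 6 receptor and Smad genes was called, with adjusted p values from 0.152 for Bmpr2 to 0.979 for Smad5. Of all 13955 genes tested in this setting, 2.69% were called lower and 4.21% higher in BP. From radial glia-profile NSC to NBN, Id1 fell by 4.88 ± 0.91 (adjusted p = 0.00522), with 2.6% of all genes called lower. NSC E15.5 had only 8 radial glia-profile cells, and without it the 4 Id differences to BP were −3.98, 2.09, −6.58 and −2.71 for Id1, Id2, Id3 and Id4, each still past the threshold.

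Within radial glia-profile cells the Id genes had separate courses over the 8 stages. Id1 was at 7.76, 59.0, 25.2 and 94.3 TPM from E10.5 to E15.5 and at 90.0, 252, 70.3 and 153 TPM from E17.5 to P1. Id4 was at 66.0, 57.9, 154 and 130.2 TPM over the first 4 stages and at 18.45 to 77.9 TPM over the last 4. Id2 was lowest at E10.5 (177 TPM) and highest at E15.5 (1534 TPM), and held 719, 483, 1035 and 1039.8 TPM from E17.5 to P1. The stage at which Id3 was listed at 0, E13.5, was thus the one at which Id4 was highest, with 26 of 32 cells holding Id4.

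**Figure D4:**
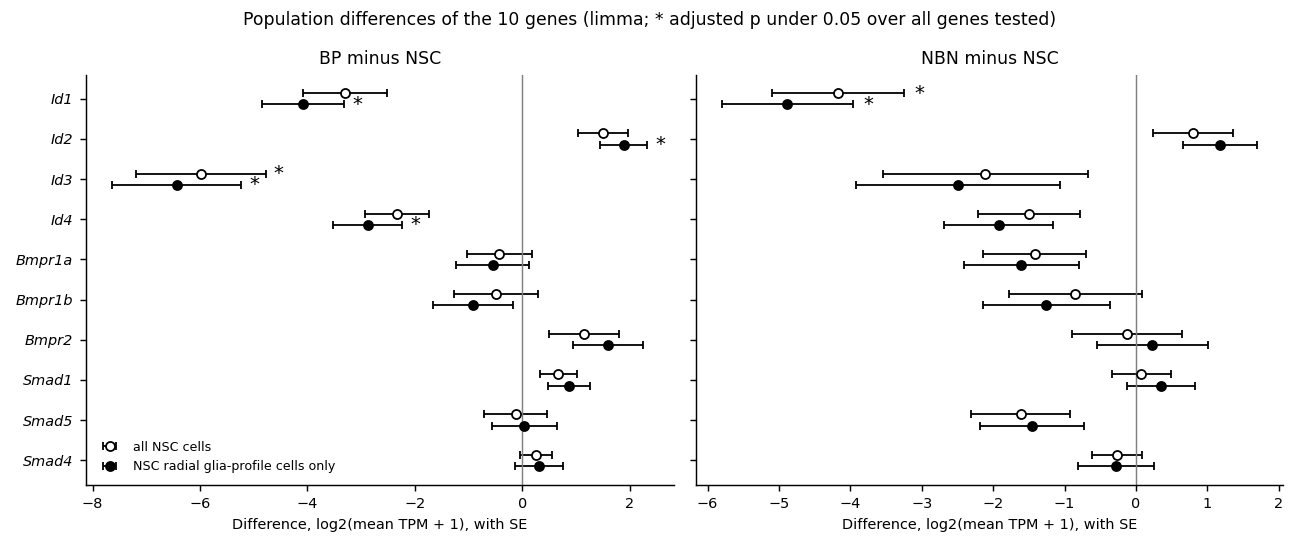
Differences of the 10 genes in log2(mean TPM + 1) between BP and NSC (left) and NBN and NSC (right), with SE bars, from all NSC cells (open) or from radial glia-profile NSC cells (filled); a star marks an adjusted p under 0.05 over all genes tested. With radial glia-profile cells the 4 Id genes pass in BP, Id2 upwards and the others downwards.

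The profiles were also compared inside the Hes5::GFP sort. In the 5 NSC libraries with at least 5 cells of each profile (E11.5, E13.5, E15.5, E17.5 and E18.5), Id1 was lower in neuron-profile than in radial glia-profile cells in 5 of 5 libraries, by 4.39 ± 2.33 (SD, n = 5) on the log2 scale. The gap was widest at E18.5, where the mean of Id1 was 252 TPM in 52 radial glia-profile cells and 0.0573 TPM in 14 neuron-profile cells. It was smallest at E11.5, with 59.0 and 16.2 TPM and Id1 in 4 of 28 and 3 of 30 cells. Bmpr1b was also lower in 5 of 5 libraries (−2.15 ± 1.30), and 6.23% of all genes tested were lower in all 5. Few cells held Bmpr1b. At E15.5 these were 10 of 78 neuron-profile and 1 of 8 radial glia-profile cells, so the share was not lower there. At E17.5 they were 1 of 48 and 3 of 28. Id2 was higher in neuron-profile cells in 5 of 5 libraries, by 1.02 ± 0.70, as were 6.1% of all genes. Its means at E13.5, where the gap was widest, were 1455 TPM in 34 neuron-profile and 395 TPM in 32 radial glia-profile cells. At E11.5 they were 432 and 383 TPM, with Id2 in 60 and 60.7% of cells. Id3 was lower in 4 libraries and at 0 in both profiles at E13.5 (−3.03 ± 3.08), and Id4 was lower in 4 of 5 (−2.12 ± 1.76).

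The smallest p that 5 libraries allow in the two-sided exact paired permutation test is 0.0625. Id1, Id2 and Bmpr1b reached it, and Id3 and Id4 gave exact p = 0.125, among 10 genes compared. When log2 values of cells were averaged, Id2 was higher in 4 of 5 libraries (1.15 ± 1.20, exact p = 0.188) and no longer reached it. Id1 and Bmpr1b still did, and Id4 was then lower in 5 of 5 (exact p = 0.0625). For Bmpr1a, Bmpr2, Smad1, Smad5 and Smad4 the differences were −0.27, 0.78, 0.23, 0.40 and 0.15, each smaller than its SD over the 5 libraries. The profiles are ranges and not cell types, and 52 of 532 NSC cells lay within 1 log2 unit of the line between them. Median genes per cell were 4971 in neuron-profile and 4717 in radial glia-profile cells.

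**Figure D5:**
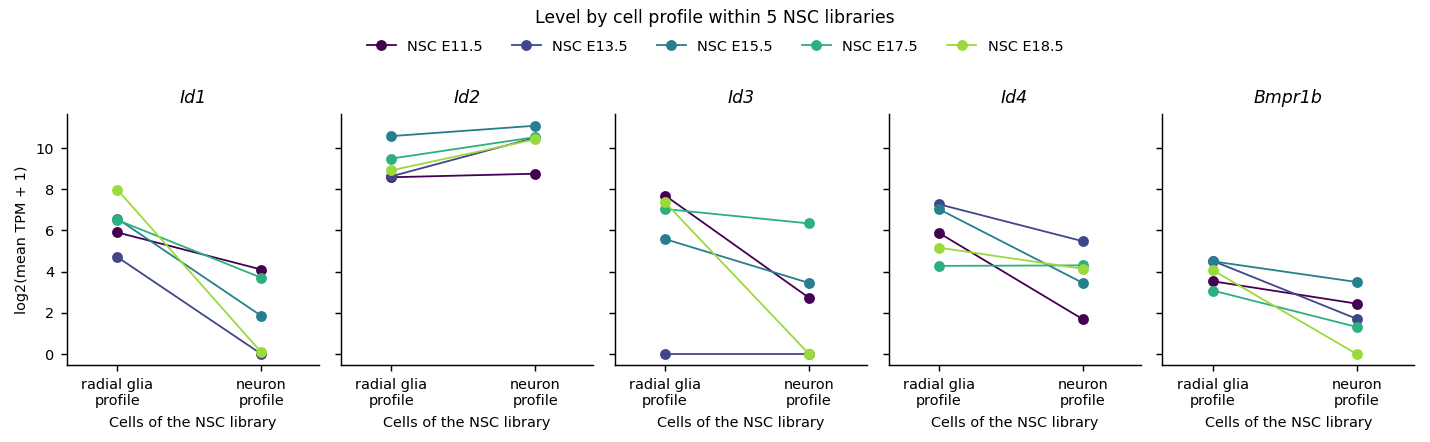
Levels of Id1, Id2, Id3, Id4 and Bmpr1b as log2(mean TPM + 1) in radial glia-profile and neuron-profile cells of 5 NSC libraries; each line joins the 2 groups of cells of 1 library. The lines of Id1 and Bmpr1b go down in 5 of 5 libraries and those of Id2 go up in 5 of 5.

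The type I receptor gene Bmpr1a was held by all populations at moderate level. Its NSC means ran from 13.7 TPM at E11.5 through a median of 43.0 to 99.8 TPM at E13.5. BP libraries held 30.7, 28.2, 40.9, 50.2 and 9.48 TPM, and NBN libraries 32.2, 35.6, 5.10 and 1.99 TPM from E16.5 to P3. The 2 postnatal NBN libraries lay below every other library. Within NBN its slope was −0.65 ± 0.19 log2 units per day (adjusted p = 0.0976), and NBN P3, the library that went against its label, is the last point of that slope. Its differences to NSC were −0.43 ± 0.60 in BP and −1.42 ± 0.72 in NBN (adjusted p = 0.780 and 0.352).

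Bmpr1b, the second type I receptor gene, was found in at most 28.9% of cells of a library. Its NSC means were 3.70 to 29.7 TPM up to P0 and 110 TPM at P1. The P1 value came mostly from 1 cell of 4713 TPM, and without it the mean was 9.71 TPM. BP libraries held 20.8, 14.0, 4.75, 8.51 and 10.9 TPM and NBN libraries 21.7, 13.9, 17.53 and 0 TPM, the last being P3. The type II receptor gene Bmpr2 had NSC means from 1.41 TPM at E18.5 through a median of 16.9 to 39.8 TPM at E15.5, BP means of 38.3, 43.6, 17.2, 28.3 and 41.0 TPM, and NBN means of 16.6, 30.4, 8.39 and 3.85 TPM. Its BP minus NSC difference was 1.15 ± 0.65 (adjusted p = 0.443), so the level in BP was not distinguished from that in NSC. Per library, 12.8 to 71.1% of cells had Bmpr1a and 3.03 to 45.3% had Bmpr2.

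Smad4 and Smad1 varied least over the 17 libraries, with an SD of 0.44 and 0.71 on the log2 scale. Smad4, the partner that all receptor-regulated Smads share, ran from 22.3 TPM (NSC E11.5) to 73.5 TPM (NSC P0), with population means on the log2 scale of 5.55 ± 0.58 (SD, n = 8) in NSC, 5.83 ± 0.26 (n = 5) in BP and 5.51 ± 0.18 (n = 4) in NBN. Smad1 had NSC means from 9.85 TPM at E11.5 through a median of 33.1 to 50.5 TPM at P0, BP means of 47.1, 51.2, 37.9, 46.6 and 53.4 TPM, and NBN means of 49.9, 19.3, 36.6 and 80.4 TPM. Smad5 had NSC means from 33.4 TPM at P1 through a median of 60.4 to 90.2 TPM at E15.5, BP means of 55.5, 27.9, 52.6, 76.7 and 59.5 TPM, and NBN means of 26.9, 58.8, 1.41 and 37.3 TPM. In NBN P1, 1 of 39 cells had Smad5. The share of cells per library with the gene was 32.8 to 81.0% for Smad1, 20.51 to 62.2% for Smad4 and 2.56 to 66.7% for Smad5. None of the 3 Smad genes was called in any population contrast, and the largest difference was that of Smad5 between NBN and NSC (−1.62 ± 0.70, adjusted p = 0.256).

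Between the Tbr2::GFP populations no gene of the 10 was called; of all genes 0.0284% were. The largest NBN minus BP difference was that of Id3 (3.87 ± 1.52, adjusted p = 0.450), and Id2 and Id1 gave −0.70 ± 0.59 and −0.87 ± 0.98. Unadjusted p was under 0.05 for Id3 only. These 3 contrasts share libraries, so the values of a gene in them are not independent.

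Age slopes were fitted per population, and none of the 10 genes was called in any. In NSC, 9 of 10 slopes were positive, with a median of 0.14 log2 units per day against 0.01 over all genes, and 1.45% of all genes were called. The steepest were Id1 (0.35 ± 0.14, adjusted p = 0.288), Id3 (0.33 ± 0.22, adjusted p = 0.594) and Id2 (0.19 ± 0.07, adjusted p = 0.190). Id1, Id2, Smad1 and Smad4 had an unadjusted limma p under 0.05 in NSC. A straight slope describes Id3 poorly, since its NSC level was 0 at E13.5 between high ends. The called share of all genes was 0% for BP slopes, 0.546% for NBN slopes and 0.00709% for the difference of BP and NSC slopes. In BP, Id1 alone had an unadjusted p under 0.05 (slope 0.54 ± 0.25), and in NBN Id2, Bmpr1a and Bmpr1b did, while for the difference of slopes none did.

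Dividing cells were compared with the others among radial glia-profile NSC cells and BP cells. A cell counted as in G2/M, the phase around mitosis, where at least 5 of 19 G2/M genes reached 10 TPM; 168 of 559 cells in 11 libraries did. Bmpr2 was lower in G2/M cells in 10 of 11 libraries, by 1.99 ± 1.69 (SD) on the log2 scale (two-sided exact paired permutation p = 0.00293, 1 of 10 genes compared and not adjusted). At BP E14.5 its mean was 4.13 TPM in 8 G2/M cells and 52.1 TPM in 37 others, and at NSC P0, the exception, 30.9 and 29.6 TPM. Of all genes, 4.98% had an exact p under 0.05 and were lower in G2/M cells. The difference was −0.52 (exact p = 0.0615) when log2 values of cells were averaged, and −1.17 (exact p = 0.125, 7 libraries) when 10 G2/M genes were required. G2/M cells had more genes per cell than the others in 8 of 11 libraries, and the part of this in the result was not tested. None of the other 9 genes had an exact p under 0.05 in the first form of the comparison, and among the Id genes the differences ran from −0.71 ± 2.04 for Id4 to 1.33 ± 3.07 for Id1.

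Within libraries the genes of the set were only loosely tied from cell to cell. Spearman's rho was computed per library over its cells for each pair found in at least 5 cells each. Id1 and Id3 had the highest median rho, 0.28 over 7 NSC libraries (0.10 to 0.54), positive in 7 of 7. In NSC E18.5, 7 cells held both, where 2.12 would be expected from the 10 cells with Id1 and the 14 with Id3 of 66; in NSC P1, 10 cells held both, with 5.96 expected. Id3 and Bmpr1a followed with a median of 0.19 over 9 libraries. Id2 and Id4 had a median of −0.04 over 14 libraries. Cells of a library share capture and differ in depth, and these values are descriptions.

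Across the 17 libraries, Id1 and Id3 had the highest correlation among the 45 pairs (Pearson's r = 0.64), and Id2 and Id4 the lowest (r = −0.68). The 5 tested genes outside the set most like Id3 were Sparc (r = 0.90), which codes for a matrix glycoprotein, then Tmem100, Anxa2, Gpx8 and Canx (r = 0.81). Those most like Id1 were Tmed1 (r = 0.91), Rgcc, Tnfaip6, Slc35d2 and Pdpn (r = 0.84), of which Pdpn is in the radial glia list. For Id4 they were Hes1 (r = 0.85), the Notch effector gene and also a radial glia marker here, then Kdelc1, Cyr61, Hsp90b1 and Add3 (r = 0.82). Id2 was most like Zbtb18 (r = 0.95), a zinc finger repressor gene of the neuronal lineage, then Gpm6a, Olfm1, Celf2 and Epha5 (r = 0.93). For the receptors and Smads the first genes were Bnip1 for Bmpr1a (r = 0.85), Thumpd3 for Bmpr1b (r = 0.81), Rc3h1 for Bmpr2 (r = 0.89), Itm2b for Smad1 (r = 0.84), Hsf1 for Smad5 (r = 0.95) and Ubr4 for Smad4 (r = 0.82). The points share the population mix and the stages, and no test was made.

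Of 7 BMP ligand genes tested (12 listed), none was called in any contrast of NSC with BP or NBN. Bmp4, Bmp6 and Bmp7 had their highest library mean in NBN P3 (67.8, 62.1 and 51.4 TPM). Their NSC medians were 0.679, 0.0297 and 2.79 TPM. NBN P3 is the library with meningeal, endothelial and microglial markers. Its choroid plexus markers summed to 11651 TPM, and 1 of its cells held markers of that type. Which cells held these ligands was not tested. Gdf11, a related ligand, reached 56.7 TPM in NSC E11.5. None of 6 other receptor and co-receptor genes was called, among them Acvr2a (up to 58.0 TPM), Acvr2b (90.8 TPM), Rgmb (107 TPM) and Neo1 (68.4 TPM). None of 4 other Smad genes was called, and Smad2, of the activin branch, was the highest at up to 173 TPM.

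Among 10 tested secreted BMP regulators, Bmper fell by 3.47 ± 0.66 on the log2 scale from NSC to NBN (adjusted p = 0.0138), from 0.454 to 25.3 TPM over NSC libraries to at most 0.678 TPM in NBN. Fstl1 and Nbl1 of that list peaked in NBN P3 at 1273 and 202 TPM. None of 9 intracellular regulators was called, including the abundant Fkbp1a (111 to 252 TPM), Skil (25.8 to 139.6 TPM), Ppm1a, Tob1 and Zfp423. Of 6 tested genes known as BMP-responsive in other settings, Hes1, which is foremost a Notch target, fell by 3.95 ± 0.75 from NSC to BP (adjusted p = 0.0179). The others, including Hey1, Dlx5 and Msx1, were not called; Dlx5 is also an interneuron marker, and interneuron markers summed to 17.0 to 316 TPM in NSC libraries and 4.62 to 41.9 TPM in BP libraries.

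Id proteins bind E proteins. The E protein gene Tcf4 ran from 70.9 TPM (NSC E10.5) to 1195 TPM, Tcf12 from 23.8 to 259 TPM and Tcf3 from 2.85 to 51.5 TPM, and none was called between populations. Of 9 tested neural basic helix-loop-helix genes, which include the glial lineage genes Olig1 and Olig2, Olig2 fell by 3.86 ± 0.83 from NSC to NBN (adjusted p = 0.0241). It rose with age in NSC by 0.48 ± 0.11 per day (adjusted p = 0.0355). Neurod1, Neurod2, Neurod6, Olig1, Nhlh1 and Nhlh2 reached at least 50 TPM in a library and were not called in these fits. The median BP minus NSC difference of this list was 1.56, that of the 10 Id, receptor and Smad genes was −0.28, and that of all genes was 0.14.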

How the data were processed

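The deposited tables hold TPM per gene and cell, which the authors obtained with kallisto 0.43.0; GRCm38.p2 and mm10 are the builds listed, both per the submitters' processing notes. The annotation release is not given in the sources used here. For 7 cells with few genes the deposited values are whole numbers of unknown origin, treated as a score, and were left out of all values but the setting with all cells. Read depth per cell is unknown from TPM alone, and no count model was fitted. Cells with at least 1000 genes at 1 TPM or more were kept (1071 of 1094), and no kept cell repeated another. A library's value was log2(mean TPM + 1), so that changes of weakly expressed genes are understated.

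Genes with a mean of 1 TPM in at least 4 libraries (14099) entered a linear model of limma (version 3.58.1, under R 4.3.3; moderated with a trend, two-sided, Benjamini-Hochberg over all genes, threshold 0.05), with age as a covariate (embryonic day, with postnatal days counted on from E18.5) or with 1 slope per population. The fit was tested on simulated data. Cell profiles were compared over libraries with exact paired permutation tests; p-values adjusted over the 10 genes alone are not given. P-values measure the spread between libraries, which may be technical, and replicate numbers in the labels only name cells. Python 3.11.15, NumPy 2.4.6, pandas 2.3.3, SciPy 1.17.1 and matplotlib 3.10.9 were used. Gene coordinates are from GENCODE M21 on GRCm38. The genes of the set and all lists were chosen with earlier results of these data known. Named were all 10 genes, genes of the pathway lists that were called or reached 50 TPM in a library, and the 5 genes most like each by Pearson's r among those reaching 10 TPM. Alternatives were the pseudocount, the filter, the mean over cells, quantile normalization, the cells used, the age term and leaving out each library, and, chosen after the data were seen, leaving out the highest cell, NBN P3 with cells of other types, or NSC E15.5 among radial glia-profile cells. The values of 1 gene of these lists are not reported here.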

Additional observations from a re-analysis of the deposited data

Results flagged for a closer look

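In 30 groups of 4 to 8 libraries (10 genes in 3 populations), 2 libraries stood apart from the rest of their group by Dixon's test, which chance gives in about 1 in 20 groups. Id3 in BP E14.5 was at 1.84 on the log2(mean TPM + 1) scale (2.59 TPM) against at most 0.09 in the other 4 BP libraries, and this value came from 1 of 45 cells. Bmpr1b in NBN P3 was listed at 0 in 39 cells against at least 3.90 in the other 3 NBN libraries; 36 of those 39 cells held markers of other cell types.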

How the results depend on the processing

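No paired analysis was possible because the numbers that the labels share between groups name single cells; stage, which some libraries of different populations share, was fitted as a factor. The number of the 10 genes called between BP and NSC, 1 in the values given above, was 0 with a pseudocount of 10, no filter, log2 values averaged over cells, cells of other types left out (which leaves 3 cells in NBN P3) or no age term. It was 2 with a filter at 10 TPM, with quantile normalization, without NBN P3 and cells of other types, or without the highest cells, and 4 with radial glia-profile NSC cells, with or without NSC E15.5. Leaving out 1 library gave 0 to 3. Between NBN and NSC the count of 1 became 0 with a pseudocount of 0.1, no filter, log2 values averaged over cells, no age term or stages from E16.5 on, 2 without the highest cells, and 0 to 1 without 1 library. With stage as a factor it stayed 1, but Id2 was called in place of Id1. Averaging log2 values left Id1 and Bmpr1b untested. The NSC slope count of 0 became 1 with averaged log2 values (Id4, lower with age) and with radial glia-profile cells without NSC E15.5 (Id2, higher with age). With averaged log2 values 1904 of 9081 genes were called lower with age in NSC, so that call was not particular to Id4. In the other setting 266 of 13909 genes were called higher. The NBN slope count of 0 became 1 with averaged log2 values (Id2), 2 without cells of other types and 1 without the highest cells. Genes called lower with age in NBN were then 2088 of 9081, 3134 of 13821 and 642 of 12496, in that order. These calls were thus not particular to the 10 genes. The Smad4 slope in NSC turned from 0.11 to −0.0203 (adjusted p = 0.860) with averaged log2 values. The mean share of BP cells with Id4, 10.9%, was 6.32% at 10 TPM. Bmpr2 in G2/M cells (−1.99) was −0.52 and −1.17 in the alternatives given above, and −2.20 to −1.70 without 1 library. The cause of these shifts was not tested. Quantile normalization moved the median difference of all genes from −0.11 to 0.04 between NBN and NSC and from −0.23 to −0.02 between NBN and BP. Id1, Id3 and Id4 stayed lower and Id2 higher in BP than in NSC in each alternative run. Read depth per cell is unknown, and Gapdh was found in 53.8% of cells of NBN P1, so a gene listed at 0 may be present.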
